A study of Mus musculus with 2 samples.

Results

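Lpin1, Retreg1, Tat, Tdo2, Ppargc1a, Pck1, G6pc, Fkbp5, Tsc22d3 and Per1 are genes of the fasting and glucocorticoid response of the liver around birth, and they are described here in mouse liver with and without MMP-14. The list of 10 genes was chosen by high measured knockout ratios in the P1 liver comparison and by induction at birth, so their P1 ratios and their higher P1 levels are descriptions and support nothing. Of the 10 genes, 9 had a named probe, among 16387 named genes on the arrays. Retreg1 was carried under its older symbol 1810015C04Rik, Ppargc1a had 2 probes and the others 1 each. G6pc, the glucose-releasing phosphatase of the liver, had no probe of that name in the platform annotation and was not analysed here.

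Expression was measured on 2 oligonucleotide arrays read in 2 colours, each pairing RNA of MMP-14 KO with RNA of wild-type animals. The protease MMP-14 sits on the cell surface, where it degrades extracellular matrix. The P1 array compared MMP-14 KO whole liver, labelled with Cy3, with wild-type whole liver, labelled with Cy5, each a mixture of RNA from 2 livers. The labels of that array say postnatal day 1, whereas the design text says E18.5, an embryonic stage, and this conflict was not settled. The E14 array compared MMP-14 KO with wild-type Dlk+CD45-CD71-Ter119- cells, sorted from fetal liver of 3 animals per genotype and labelled in the same way with Cy3 and Cy5. The labels give E14 and the design text E14.5, with RNA from 100000 cells. Neither the knockout allele nor the strain, sex, hour of collection or feeding of the animals is stated in the sources used here. With 1 array per comparison, pooled animals and no dye swap, there is no error between animals, no test and no p-value. Genotype and dye cannot be told apart for any gene.

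Birth ends the supply of glucose through the placenta, and the liver then begins to make glucose itself. Glucagon, acting through cAMP, and glucocorticoids, acting through the glucocorticoid receptor, switch on this programme, which includes glucose production, the breakdown of amino acids as fuel and precursors, and the burning of fat. The same hormones drive these genes in the fasting adult. Fkbp5, Tsc22d3 and Per1 are direct targets of the glucocorticoid receptor in many tissues and are often read as a gauge of its activity.

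A reading was called detectable above the mean plus 2 SD of the blank spots. The P1 thresholds were 87.0 in the knockout and 50.5 in the wild-type channel, and the E14 thresholds 85.1 in the knockout and 44.3 in the wild-type channel. The median ratio of knockout to wild-type readings was 1.57 for P1 and 2.17 for E14, so raw signals of the channels cannot be compared directly. All ratios below are log2 of knockout over wild type after normalisation. Mmp14 itself read 104 in the knockout and 161 in the wild-type P1 channel (log2 ratio -1.30). In the E14 channels it read 132 in the knockout and 131 in the wild type (-1.13). The size of these ratios depended on the processing. In the authors' deposited table they were -2.83 for P1 and -2.13 for E14. With the local background used in normexp background correction they were -0.27 for P1 and -0.45 for E14. Which part of Mmp14 the probe covers is not stated, so these readings check the labels only as far as the probe lies in deleted sequence. The P1 wild-type channel stands apart from the other 3 channels in its lung markers, all 15 of which were detectable there in RNA labelled as liver, and their values are given with the other markers at the end.

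The promoters of the genes were taken from RefSeq (build GRCm38.p6), where all 10 matched with 16 start sites, from 250 bases before to 50 after each. They were examined because several of these genes are classic targets of cAMP and glucocorticoid signalling. Both strands were searched for the full glucocorticoid response element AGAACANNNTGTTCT, its hexamer TGTTCT, the cAMP response element TGACGTCA, its core TGACG, the FOXO motif TGTTTAC and the E-box CACGTG. The hexamer lies within the full element and the core within the cAMP element, so these matches overlap. Only some promoters are shown, and each of those holds a match. The promoters of Tat, Tdo2 and G6pc, not shown, held no match to any of these motifs. Capitals below mark every match, and sequences read in the direction of the gene.
Lpin1, chr12:16610917-16611216, minus strand: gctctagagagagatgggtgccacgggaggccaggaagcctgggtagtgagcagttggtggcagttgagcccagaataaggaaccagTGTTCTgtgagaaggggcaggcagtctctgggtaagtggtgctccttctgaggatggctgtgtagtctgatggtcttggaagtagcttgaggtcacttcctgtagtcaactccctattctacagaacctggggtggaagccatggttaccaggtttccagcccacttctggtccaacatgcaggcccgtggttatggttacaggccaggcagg
Retreg1, chr15:25843048-25843347, plus strand: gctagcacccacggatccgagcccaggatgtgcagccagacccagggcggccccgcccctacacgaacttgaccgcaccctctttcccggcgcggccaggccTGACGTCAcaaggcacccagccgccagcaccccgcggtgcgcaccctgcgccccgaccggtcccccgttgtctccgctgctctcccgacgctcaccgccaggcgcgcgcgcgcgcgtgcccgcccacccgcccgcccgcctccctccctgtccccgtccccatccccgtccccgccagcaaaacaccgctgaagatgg
Pck1, chr2:173152823-173153122, plus strand: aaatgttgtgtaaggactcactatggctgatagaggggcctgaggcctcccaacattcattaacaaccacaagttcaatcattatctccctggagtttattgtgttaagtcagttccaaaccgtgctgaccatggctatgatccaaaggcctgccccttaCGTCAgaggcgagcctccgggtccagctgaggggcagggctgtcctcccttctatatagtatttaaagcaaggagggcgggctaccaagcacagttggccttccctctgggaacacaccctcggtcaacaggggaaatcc
Ppargc1a, chr5:51567676-51567975, minus strand: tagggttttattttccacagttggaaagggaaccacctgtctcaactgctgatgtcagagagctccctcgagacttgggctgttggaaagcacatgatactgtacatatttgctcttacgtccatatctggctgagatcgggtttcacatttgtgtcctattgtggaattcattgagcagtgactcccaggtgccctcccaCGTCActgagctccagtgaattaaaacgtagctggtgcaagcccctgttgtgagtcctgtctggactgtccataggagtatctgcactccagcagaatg
Per1, chr11:69098699-69098998, plus strand: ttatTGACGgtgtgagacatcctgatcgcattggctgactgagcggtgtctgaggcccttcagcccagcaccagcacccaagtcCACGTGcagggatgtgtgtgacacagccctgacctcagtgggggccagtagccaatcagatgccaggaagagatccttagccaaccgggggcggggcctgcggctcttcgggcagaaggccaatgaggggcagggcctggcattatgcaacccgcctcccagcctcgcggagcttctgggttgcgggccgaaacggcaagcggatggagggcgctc

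The cAMP element was present in 1 of the 16 promoters, that of Retreg1, at position -148 from the start site, and in 1.79% of 32851 mouse promoters in the same table. Its core was found in 7 of 16, against 20.8% of all promoters. In Pck1, a textbook cAMP-responsive gene, it lay on the opposite strand at position -90, and in Ppargc1a at position -49, also on the opposite strand. The glucocorticoid hexamer occurred in 5 of 16, including Lpin1 at position -163, against 19% of all promoters. The full element was found in 0 of 16 and in 0.00913% of all, the FOXO motif in 0 of 16 and 3.65% of all, and the E-box in 3 of 16 and 7.15% of all. Per1 as shown holds the core at position -246 and the E-box at -166, and 3 of the 5 hexamer matches lie at later start sites of Retreg1, since genes with several start sites count with each. These are matches of letters within short windows, and nothing about the binding of a factor follows from their presence or absence.

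Among the genes of glucose output, Pck1, which encodes the enzyme that commits carbon to glucose production, was higher in the knockout liver by less than 2-fold. Its signal was 20588 in the knockout and 6614 in the wild-type P1 channel. The normalised log2 ratio was 0.89, a 1.85-fold difference, and in the authors' deposited table it was 1.21. Both readings were far above the thresholds, by 237 times in the knockout and 131 times in the wild-type channel. In the sorted E14 cells Pck1 was dim, with signals of 136 in the knockout and 65.2 in the wild-type channel, and its log2 ratio was -0.02. These E14 readings stood at 1.59 times the threshold in the knockout and 1.47 times in the wild-type channel. Over the 9 alternatives the P1 ratio of Pck1 ranged from 0.57 to 1.64, and it reached 2-fold in 3 of them. At its P1 spot the local background read 9104 in the knockout and 1316 in the wild-type channel.

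Lpin1 and Ppargc1a are regulators that act together in fasting liver. Lpin1 encodes a phosphatidate phosphatase that also works as a nuclear coactivator, and Ppargc1a encodes PGC-1 alpha, the coactivator that turns on genes of glucose production and mitochondria. Lpin1 had signals of 1125 in the knockout and 118 in the wild-type P1 channel. Its log2 ratio of 2.73, a 6.61-fold difference, was the highest of the 12715 named genes detectable in both channels, and the authors' deposited value was 3.47. In the E14 cells the signals of Lpin1 were 170 in the knockout and 82.6 in the wild-type channel, with a log2 ratio of -0.07. The wild-type P1 reading of Lpin1 stood at 2.33 times its threshold, and the knockout reading at 12.9 times.

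Both probes of Ppargc1a were higher in the P1 knockout. The brighter probe read 934 in the knockout and 166 in the wild-type channel, with a log2 ratio of 1.96. The dimmer probe read 441 in the knockout and 121 in the wild-type channel, with a log2 ratio of 1.38. Their mean was 1.67, and the gap between them exceeded the SD between probes of a gene on this array, which was 0.22 over 139 genes. On the E14 array the brighter probe read 453 in the knockout and 195 in the wild-type channel (log2 ratio -0.01), and the dimmer one 273 in the knockout and 124 in the wild-type channel (-0.04). With the local background subtracted, the dimmer probe moved to 1.89 on the E14 array. Its wild-type reading there, 124, lay close to the local background of 118.

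Tat and Tdo2 encode the enzymes that open the breakdown of tyrosine and of tryptophan. Both are classic glucocorticoid-induced genes of rodent liver that appear around birth. Tat read 15131 in the knockout and 2775 in the wild-type P1 channel, a log2 ratio of 1.73 and a 3.32-fold difference. In the E14 cells Tat read 94.8 in the knockout and 46.0 in the wild-type channel, barely above the thresholds, so its log2 ratio of 0.03 and the authors' deposited value of 0.57 say little. Tdo2 read 1625 in the knockout and 300.1 in the wild-type P1 channel, a log2 ratio of 1.86 and a 3.62-fold difference. It was not detectable in the wild-type E14 channel, with a reading of 42.0, and the knockout reading of 88.2 lay just above its threshold. Tdo2 therefore entered no E14 count, and no E14 fold is given for it.

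Fkbp5, Per1 and Tsc22d3 had P1 ratios below those of the 6 other genes as reported, but not in every setting. Tat and Tdo2 are glucocorticoid-induced as well, so the 3 do not stand for such genes as a class. With the local background subtracted, Fkbp5 (1.07) and Per1 (0.67) were level with or above Pck1 (0.67). Fkbp5, which encodes a cochaperone that restrains the receptor and is induced by it, read 167 in the knockout and 80.5 in the wild-type channel, a log2 ratio of 0.51. Per1, a clock gene that glucocorticoids induce, read 240 in the knockout and 148 in the wild-type channel, a log2 ratio of 0.19. Tsc22d3, which encodes the leucine zipper protein GILZ, read 741 in the knockout and 446 in the wild-type channel, a log2 ratio of 0.16. None of the 3 reached 1.5-fold as reported. Fkbp5 passed it in 4 of the 9 alternatives, with 0.94 in the authors' deposited table, 1.07 with the local background subtracted, 0.74 with an offset of 16 and 0.70 with no normalisation. Per1 passed it with the local background subtracted, and Tsc22d3 with no normalisation (0.66). The ratio of Tsc22d3 turned slightly negative in 2 of the 9 alternatives, at -0.08 with the local background subtracted and -0.02 with it used in normexp. In the authors' deposited table Per1 stood at 0.22 and Tsc22d3 at 0.29 on the P1 array.

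In the E14 cells Tsc22d3, Per1 and Fkbp5 differed by less than 1.5-fold and not in 1 direction. Tsc22d3 read 371 in the knockout and 140 in the wild-type channel, a log2 ratio of 0.21. Per1 read 180 in the knockout and 76.3 in the wild-type channel, a log2 ratio of 0.12. Fkbp5 read 177 in the knockout and 90.7 in the wild-type channel, with a log2 ratio of -0.15, the lowest among the listed genes there. Per1 moved to 2.21 when the local background was subtracted. Its wild-type reading of 76.3 lay only just above its local background of 73.1, so that setting leaves almost no signal to divide by.

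Retreg1 encodes a membrane protein that hands pieces of the endoplasmic reticulum to autophagy. It read 2507 in the knockout and 383 in the wild-type P1 channel, a log2 ratio of 2.10 and a 4.30-fold difference. The ratio ranked 3 among all named genes detectable in both channels and was 2.42 in the authors' deposited table. In the E14 cells Retreg1 read 176 in the knockout and 75.4 in the wild-type channel, a log2 ratio of 0.11. The difference between the arrays in the ratio of Retreg1, 1.99 on the log2 scale, was exceeded only by that of Lpin1, at 2.79, among the listed genes.

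**Figure D1:**
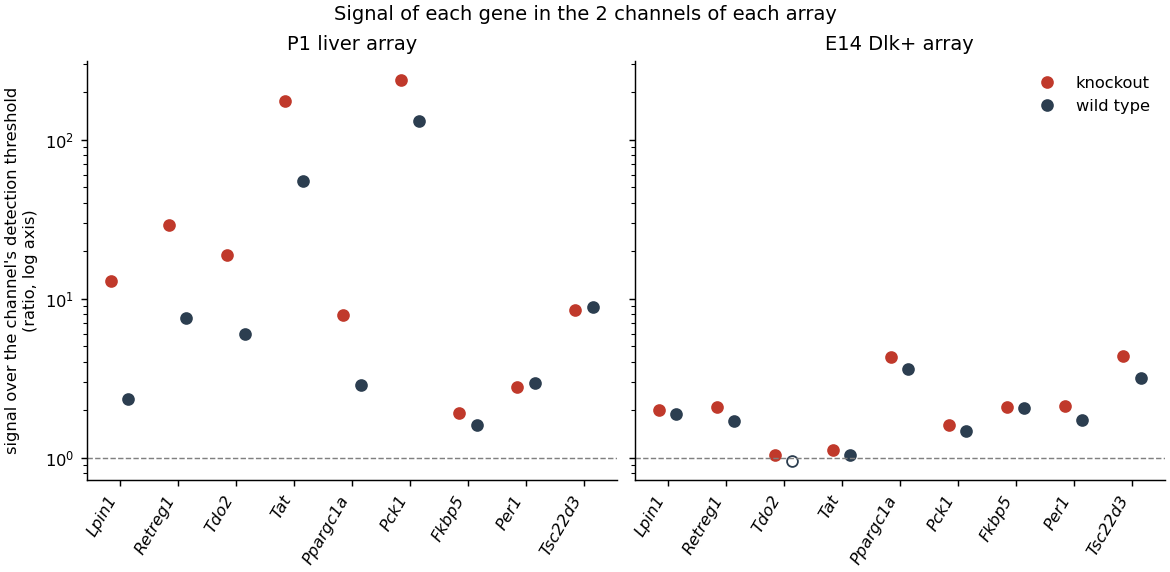
Signal of each gene divided by the detection threshold of its channel, on a log axis, for the P1 liver array (left) and the E14 Dlk+ array (right), with knockout in red and wild type in dark blue. The dashed line marks the threshold, the open circle a reading below it, and each point is 1 channel of 1 array, so there are no error bars.

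Counted together, 5 of the 9 genes were at least 2-fold higher in the P1 knockout, namely Lpin1, Retreg1, Tdo2, Tat and Ppargc1a. None was lower by that much. Over all named genes detectable in both channels, the shares were 0.558% for higher and 1.45% for lower. At 1.5-fold, Pck1 joined them for 6 of 9 higher and 0 of 9 lower, against 2.84% and 4.12% of all genes. All 9 were above 0, against 49.6% of all genes, and their median log2 ratio was 1.67, against -0.0017 for all genes. These counts follow from how the genes were chosen. They place the genes on the array and are no evidence about them.

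The rule that chose the genes did not use the E14 ratios, though earlier results of these data were known. Choice by induction at birth favours genes that are dim at E14, and the offset shrinks ratios of dim genes. Few genes of any kind passed 1.5-fold on the E14 array, so its counts are also descriptions and support nothing. Of the 8 detectable in both channels there, 0 were at least 2-fold or 1.5-fold higher, against 0.0157% and 0.307% of all genes. Likewise 0 of 8 were at least 2-fold or 1.5-fold lower, against 0.0945% and 0.22% of all genes. Above 0 were 4 of 8, against 53.1% of all genes, and the median was 0.01, as for all genes. The E14 log2 ratios ran from -0.15 for Fkbp5, with 5.23% of genes lower, to 0.21 for Tsc22d3, with 93.2% of genes lower, so they went both ways and some lay toward the edges of a narrow distribution.

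**Figure D2:**
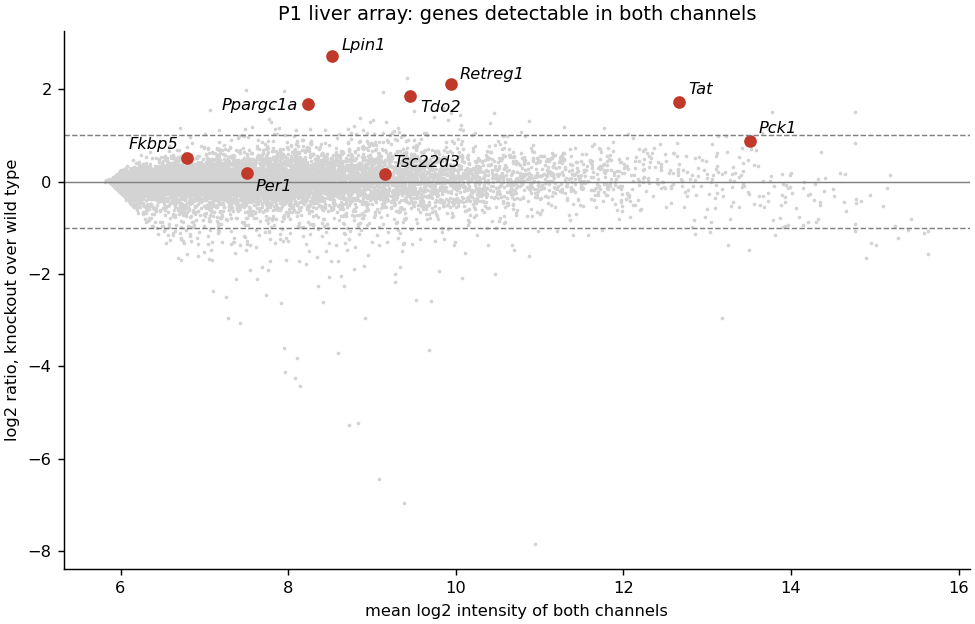
Log2 ratio of knockout over wild type against the mean log2 intensity of both channels on the P1 liver array, with 1 grey point per named gene detectable in both channels and the listed genes in red. Dashed lines mark 2-fold differences, and the listed genes range from 0.16 for Tsc22d3 to 2.73 for Lpin1.

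**Figure D3:**
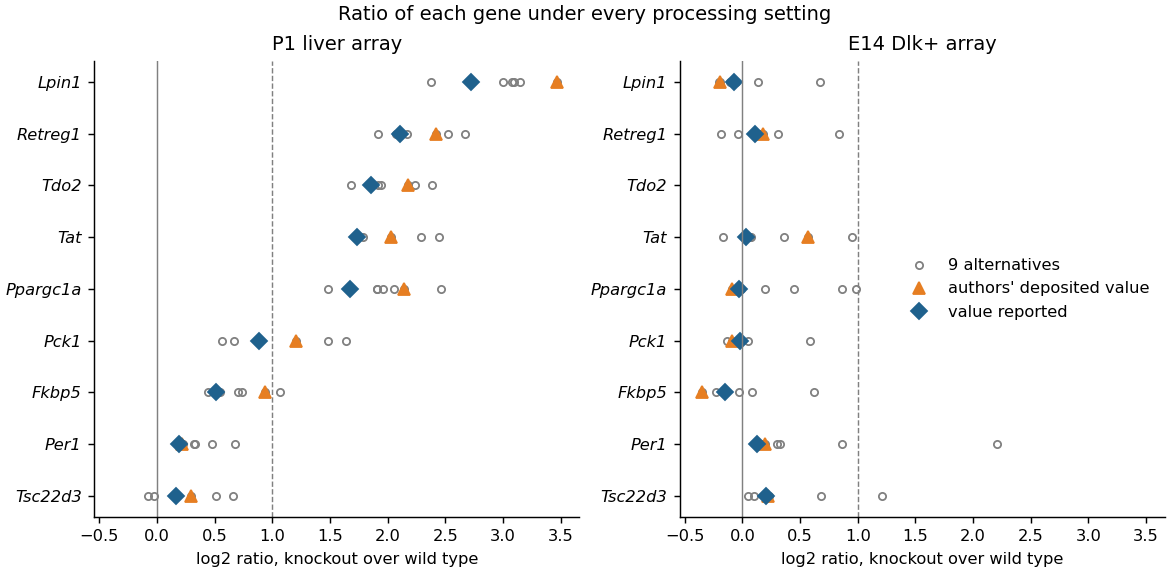
Log2 ratio of knockout over wild type for each gene on the P1 liver array (left) and the E14 Dlk+ array (right) under the reported setting (blue), the authors' deposited values (orange) and the other alternatives (grey circles). Lpin1, Retreg1, Tdo2, Tat and Ppargc1a lie beyond the dashed 2-fold line under all 9 alternatives on the P1 array, and Tdo2 has no E14 value because its wild-type reading was below the threshold.

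The levels of the genes were also set against each other across the arrays, within each genotype. The 4 channels were brought to 1 distribution by quantile normalisation, and the arrays were hybridised separately. The later sample was whole liver and the earlier one sorted Dlk-positive cells, so stage, cell mix and array cannot be told apart. In the wild-type P1 channel all 15 lung markers were detectable, and their part in the wild-type differences was not tested. Fewer cells of a type and less RNA per cell cannot be told apart either. Higher P1 levels were part of the choice of genes and are given as a description.

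Tat and Pck1 differed most between the arrays. Tat was 184-fold higher in the P1 than in the E14 sample in the knockout channels and 56.0-fold higher in the wild-type channels. For Pck1 the differences were 182-fold in the knockout and 89.8-fold in the wild-type channels. Since both genes lay near the thresholds at E14, these folds rest on dim E14 readings, and the offset used in background correction shrinks them. Tdo2 was 22.2-fold higher in the knockout channels and at least 6.05-fold higher in the wild-type channels, where its E14 reading was below the threshold. Retreg1 was 16.7-fold higher in the knockout and 4.31-fold higher in the wild-type channels. Tat, Pck1, Tdo2 and Retreg1 were thus higher in the P1 sample in both genotypes by more than 4-fold. Retreg1 had the smallest differences of these. Of all named genes, 99.6% differed less than Retreg1 in the knockout and 98.2% in the wild-type channels.

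The remaining genes showed other patterns. Lpin1 was 8.28-fold higher in the P1 than in the E14 sample in the knockout channels but only 1.09-fold higher in the wild-type channels. Ppargc1a was 2.39-fold higher in the knockout channels, while in the wild-type channels its log2 level was lower by a difference of -0.54. Neither regulator was thus 1.5-fold higher in the wild-type P1 channel than in the wild-type E14 channel. That P1 channel also held lung markers, so this is no statement about liver alone. Tsc22d3 was 2.64-fold higher in the knockout and 2.66-fold higher in the wild-type channels, which is nearly the same in both genotypes. Per1 was 1.65-fold higher in the knockout and 1.52-fold higher in the wild-type channels. Fkbp5 was 1.11-fold higher in the knockout channels, with a log2 difference of -0.56 in the wild-type channels. Among all genes detectable on both arrays the median difference was -0.03 in the knockout and -0.07 in the wild-type channels. Scaling each channel to its 75th percentile in place of quantile normalisation gave the same direction for each of the 17 differences it could be computed for, but larger sizes for most. On the log2 scale Tat moved to 10.57 in the knockout and 9.07 in the wild-type channels, against 7.53 and 5.81 as reported. Pck1 moved to 9.05 in the knockout and 7.71 in the wild-type channels, against 7.51 and 6.49. Tdo2 in the knockout channels moved to 8.19, against 4.47. The folds of these genes therefore depend on the scaling. Retreg1 moved to 5.18 in the knockout and 2.89 in the wild-type channels, against 4.06 and 2.11, and Lpin1 to 4.05 in the knockout and 0.34 in the wild-type channels, against 3.05 and 0.13.

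**Figure D4:**
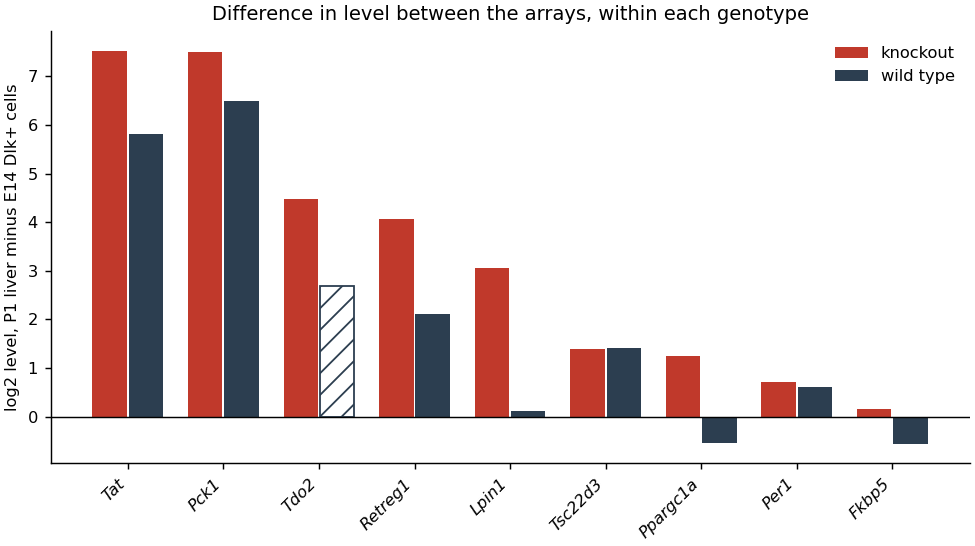
Difference in quantile-normalised log2 level, P1 liver minus E14 Dlk+ cells, for each gene within the knockout channels (red) and within the wild-type channels (dark blue). The hatched bar marks Tdo2 in the wild type, whose E14 reading was below the threshold, and there are no error bars because each bar rests on 1 channel per array.

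Other genes of the same pathways were described from 9 lists, by their counts and their medians. In amino acid breakdown, 20 of 23 genes detectable in both channels were above 0 in the P1 knockout, against 49.6% of all genes, with a median of 0.38 against -0.0017. At 1.5-fold, 6 were higher and 0 lower, against 2.84% and 4.12% of all genes. The shares above 0 and at 1.5-fold apply to the P1 counts of the other lists as well. The highest were Sds, which encodes serine dehydratase (1.41), and Aass, an enzyme of lysine breakdown (0.89). The lowest were Mat1a, which encodes the liver methionine adenosyltransferase (-0.45), and Glud1, which encodes glutamate dehydrogenase (-0.30). In the E14 cells the median of this list was -0.01, with 10 of 23 above 0, against 53.1% of all genes.

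In glucose production, 15 of 19 genes were above 0 in the P1 knockout, against 49.6% of all genes, with a median of 0.28. At 1.5-fold, 6 were higher and 1 lower, against 2.84% and 4.12%. Got1, which encodes the cytosolic aspartate aminotransferase (0.98), and Slc37a4, which carries glucose phosphate into the endoplasmic reticulum (0.76), were the highest. Ldha, which encodes a lactate dehydrogenase subunit, stood at -0.81, and Pcx, which encodes pyruvate carboxylase, at -0.13. The E14 median was -0.08, with 8 of 19 above 0, against 53.1% of all genes.

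The glucocorticoid list held receptors, binding proteins, chaperones and known targets. On the P1 array 18 of 27 were above 0, against 49.6% of all genes, with a median of 0.32. At 2-fold, 6 were higher and 0 lower, against 0.558% and 1.45% of all genes. At 1.5-fold, 9 were higher and 5 lower, against 2.84% and 4.12%. The members of this list thus went both ways. The highest were Sult1e1, which encodes estrogen sulfotransferase (1.55), and the metallothionein gene Mt2 (1.51). The lowest were Dusp1, which encodes a MAP kinase phosphatase (-0.93), and Hsd11b1, which encodes the enzyme that regenerates active glucocorticoid in liver (-0.89). Pdk4 (1.03), a brake on glucose oxidation, Errfi1 (1.02), an inhibitor of the EGF receptor, Ddit4 (1.17) and Mt1, named after their values were seen, complete the 6. Nr3c1, the receptor itself and also named after its values were seen, was dim, with 86.2 in the knockout channel, below the threshold, and 53.1 in the wild-type channel. The E14 median of the list was 0.03, with 15 of 28 above 0, against 53.1% of all genes. At least 2-fold lower there were 3 genes, against 0.0945% of all genes. They were Mt2 (-2.01), Mt1 (-1.38) and Serpina6 (-1.18), the last also named after its value was seen. Each had a whole-number reading, a kind found only among bright spots.

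The signalling and lipid lists lay nearer to 0 in the P1 knockout. The cAMP, insulin and FOXO list had a median of 0.07, with 13 of 23 above 0. Igfbp1, a liver gene that insulin represses (0.63), and Trib3 (0.61) were its highest genes, and the cAMP phosphodiesterase gene Pde4b (-0.70) and the immediate early gene Nr4a1 (-0.63) its lowest. The knockout reading of Igfbp1, 34323, was a whole number. Such readings began at 33958 in that channel and reached values as high as 61428, for Mt1. They occurred only among bright spots, and their meaning was not tested. The fasting lipid list had a median of 0.0021, with 9 of 18 above 0. Pnpla2, which encodes a triglyceride lipase (0.92), and Esrra, a nuclear receptor that partners PGC-1 alpha (0.84), were its highest genes, while Plin2, a lipid droplet coat gene, stood at -0.61 and Cyp4a14, a PPAR alpha target with a whole-number reading, at -0.29. The E14 medians of these lists were 0.01 and -0.01.

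Clock genes beside Per1 had a P1 median of -0.04, with 7 of 16 above 0 and 0 at least 1.5-fold higher or lower. Nr1d1 (0.55) and Rora (0.50), which encode nuclear receptors of the clock, were the highest, and Csnk1e (-0.45) and Bhlhe40 (-0.44) the lowest. The E14 median was 0.02. ER-phagy and autophagy genes beside Retreg1 had a P1 median of 0.06, with 14 of 22 above 0. Only Gabarapl1, an autophagosome protein gene (0.99), was at least 1.5-fold higher. Atg2a followed at 0.43, and Gabarap (-0.55) and Map1lc3a (-0.27) were the lowest. The E14 median was -0.01, and none of these autophagy genes reached 1.5-fold there, against 0.307% of all genes higher and 0.22% lower.

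Insulin does not induce every gene listed for the fed state, and an exception is Insig2 (0.84), named after its value was seen. The listed fed-state genes had a P1 median of 0.11, with 6 of 11 above 0. Me1, which encodes malic enzyme (1.09), and the sterol-regulated gene Insig1 (0.97) were the highest, and the fatty acid synthesis genes Scd1 (-0.91) and Fasn (-0.46) the lowest. Their E14 median was -0.01. Glycogen genes had a P1 median of 0.13, with 7 of 9 above 0. Ugp2, which makes the sugar donor for glycogen (1.16), and the branching enzyme gene Gbe1 (0.70) were the highest, while glycogenin (Gyg) stood at -0.91 and Ppp1r3b at -0.03. Their E14 median was 0.11. The P1 medians of the fasting lipid and clock lists changed sign in some alternatives, and those of the other 7 lists did not. The size of the P1 medians moved, over the 9 alternatives, from 0.27 to 0.95 for amino acid breakdown, from 0.26 to 0.93 for glucose production and from 0.28 to 0.68 for the glucocorticoid list. The E14 medians of all lists but glycogen changed sign in at least 2 of the 9 alternatives, so their directions are not settled.

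**Figure D5:**
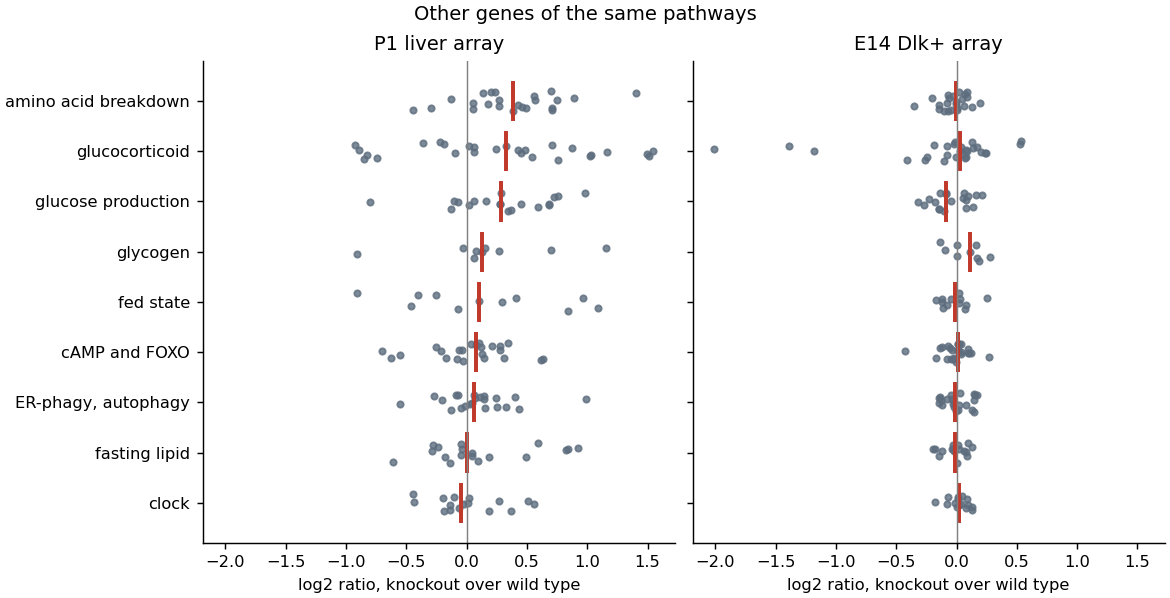
Log2 ratio of knockout over wild type for the other genes of each pathway on the P1 liver array (left) and the E14 Dlk+ array (right), with 1 grey point per gene detectable in both channels and a red bar at the median of the list. The P1 medians run from 0.38 for amino acid breakdown to -0.04 for clock genes.

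The genes most like the listed ones in their pattern over the 4 channels were found from the mean profile of the 8 detectable in all 4. Among 11997 other genes, the nearest were Abcg5, a sterol exporter subunit gene (distance 0.14), Srxn1 (0.15), Tmem106b (0.24), Gpx3 (0.30), Gch1 (0.30) and Gclc (0.32). Distance is Euclidean, on quantile-normalised log2 levels centred on each gene's mean. Abcg5 read 903 in the knockout and 240 in the wild-type P1 channel, against 116 in the knockout and 59.4 in the wild-type E14 channel. The P1 log2 ratios of the 6 ran from 1.06 for Gch1 to 1.49 for Tmem106b. The distances of the listed genes from their own mean ran from 0.75 for Retreg1 to 4.43 for Pck1. The 6 nearest genes were picked as the closest of 11997, so the distances of the listed genes cannot be compared with theirs.

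Marker genes of other cell types differed between the P1 channels as well. Lung markers were detectable for 10 of 15 genes in the knockout and 15 of 15 in the wild-type channel, with summed signals of 1969 in the knockout and 45656 in the wild-type channel. Sftpc, Scgb1a1 and Cbr2 gave the highest readings, and the median log2 ratio of those detectable in both channels was -4.83. Sftpb, Scgb3a2, Nkx2-1, Cldn18 and Lamp3, named after their values were seen, were not detectable in the knockout channel. In the E14 cells 8 of 15 were detectable in each channel, and the summed signals were 1451 in the knockout and 724 in the wild-type channel. These sums are raw and include the blank level. The mean E14 blank reading was 80.7 in the knockout and 42.3 in the wild-type channel, so the E14 sums cannot be compared between channels. Stromal markers had a P1 median of -0.39, endothelial markers -0.67, erythroid markers -0.57 and macrophage markers -0.16. With median centring these were -0.26, -0.30, -0.37 and 0.21 in the same order, so the macrophage median changed sign. Their part in the P1 ratios of the listed genes was not tested.

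Hepatocyte markers had a P1 median of -0.94, which was -0.61 in the authors' values and -0.33 with median centring. All 12 were detectable in both channels, with summed raw signals of 249464 in the knockout and 327827 in the wild-type channel. Among them Alb, Trf, Ahsg, Ttr, Apoa1 and Fgb had whole-number readings, found only among bright spots, and their ratios are taken as uncertain. Apoa1 and Fgb were named after their values were seen. Above 0 were 2 of 12, against 49.6% of all genes. They were Cps1 (1.06) and Hnf4a (0.31), both named after their values were seen. The E14 median of hepatocyte markers was -0.36, with 1 of 12 above 0, against 53.1% of all genes. It turned to 0.04 with median centring. Alb, Ttr, Apoa1 and Trf had whole-number readings there. Hepatoblast markers were detectable for all 5 genes in both channels of both arrays, whole liver included, so their detection cannot check the sort. Their median was -0.10 on the P1 and -0.70 on the E14 array, and it turned to 0.20 and 0.07 with median centring, and to 0.09 for P1 in the authors' values, so it has no settled direction. Afp, Igf2 and H19 gave the highest readings on both arrays, with whole-number readings for Afp on both and for H19 on the E14 array. Dlk1, the sorting marker, named after its values were seen, read 11869 in the knockout and 4971 in the wild-type E14 channel. Its P1 readings were 197 in the knockout and 128 in the wild-type channel. The stromal markers had an E14 median of 0.43 (1.04 with median centring), endothelial markers -0.03, erythroid markers 0.0014 and macrophage markers -0.0022.

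Kidney, muscle, fat and adrenal gland also express some of the listed genes, and their marker lists were read in the P1 channels too. The sums below are raw and include the blank level, whose mean was 82.5 in the knockout and 48.0 in the wild-type channel. Sums of dim lists therefore cannot be compared between channels. Kidney markers were detectable for 6 of 10 genes in the knockout and 8 of 10 in the wild-type channel, with summed signals of 937 in the knockout and 587 in the wild-type channel. Umod and Slc34a1, named after their values were seen, were not detectable in either. The median signal of the kidney list in the knockout channel was 92.9, against a threshold of 87.0. Skeletal muscle markers had summed signals of 1243 in the knockout and 813 in the wild-type channel and a median ratio of 0.03. Brown fat markers summed to 2413 in the knockout and 1828 in the wild-type channel, mostly Fabp4, with a median of 0.01. For adrenal markers the sums were 1261 in the knockout and 1002 in the wild-type channel, with a median of -0.24, and 4 of 8 genes were detectable in each. Pancreas and gut markers summed to 5964 in the knockout and 21387 in the wild-type channel, a sum dominated by Apoa4, which liver also makes (-2.94). The E14 medians of these lists were -0.07 for kidney, 0.03 for muscle, -0.0017 for brown fat, -0.03 for adrenal and -0.03 for pancreas and gut.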

How the data were processed

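RNA was amplified with an amino allyl kit and coupled to dyes, per the labels' protocols. The authors deposited scanner files with spot intensities of both channels and a local background, per the file headers, not normalised. Their value table holds log2 ratios, which the labels describe as normalised; set against the scanner values, these deposited log2 values correlated at 1.00 with blank-subtracted ratios centred on the array median.

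Of 23473 probes per array, 16631 carried 1 symbol, 0 several and 6842 none. In a RefSeq table of GRCm38.p6, 12622 symbols were current, 3947 were updated and 62 kept. Normexp background correction (limma 3.58.1, R 4.3.3, offset 50) left out the local background, which followed the spot signal (Spearman 0.90 to 0.97). Ratios were normalised by loess with control spots at weight 0, and spots, then probes, of a gene were averaged. The offset shrinks ratios of dim genes. Blank thresholds used the blank spots after 5 percent was trimmed at each end. On the E14 array 4 flagged spots were left out. The steps were tested on simulated data. The number of arrays limits the precision.

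Members, lists and settings were chosen with earlier results of these data known. Named genes were the members, the 2 highest and 2 lowest P1 ratios of each of 9 pathway lists, the 3 brightest genes of each of 12 marker lists, Mmp14, and the 6 genes nearest the members' mean profile. Others are marked in the text. Alternatives were the deposited values, other uses of the local background, an offset of 16, median centring, no normalisation, detection in 1 channel, no whole-number readings and the brightest probe.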

Additional observations from a re-analysis of the deposited data

How the results depend on the processing

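The P1 count of listed genes at least 2-fold higher was 5, and 5 or 6 under each of the 9 alternatives. The E14 count of 0 became 1 with the local background subtracted (Per1) and 1 with no normalisation within the array (Tsc22d3). The P1 median of the listed genes, 1.67, was 2.03 in the authors' values, 1.90 with median centring and 2.06 with no normalisation, and the E14 median of 0.01 was 0.22 and 0.75 in those last settings. Under them the median of all genes was 0.05 and 0.20 on the P1 and 0.28 and 0.82 on the E14 array, so relative to all genes the shift of the E14 median was -0.06 in each. Counts over the whole array moved far more. At 2-fold, 71 genes were higher and 185 lower on the P1 array, against 403 and 640 in the authors' values, 1114 and 705 with the local background subtracted, 274 and 117 with median centring and 504 and 82 with no normalisation. With the local background in normexp 342 were higher, and with an offset of 16 there were 301 lower. The higher share of these P1 calls was 27.7% as reported, 38.6% in the authors' values and 70.1% with median centring. On the E14 array 2 were higher and 12 lower, against 160 and 34 in the authors' values, 825 and 312 with the local background subtracted, 155 and 1 with median centring and 4603 and 0 with no normalisation. With the local background in normexp 169 were higher, with an offset of 16 there were 5 higher, and without probes read as whole numbers there were 2 lower. The cause of these changes was not tested. Dim signals limit the E14 values of Tat and Tdo2 most. They also limit those of Pck1, Retreg1, Per1, Lpin1 and Fkbp5, whose wild-type readings ran from 1.47 to 2.05 times the threshold. No paired analysis was possible because each comparison has 1 array.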
